A study of Homo sapiens with 40 samples.

Results

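The exons compared here are those measured by RASL-seq in cells running on either of 2 slow RNA polymerase II mutants, H1106Y and R749H. A member is an exon event listed with the same coordinates, strand, gene and exon in the deposited comparison of H1106Y with wild type (WT) and in that of R749H with WT. There were 1987 such events in 1504 genes, of 2070 events listed for H1106Y, 2248 for R749H and 2456 in all RASL-seq tables of the study. The cells were HEK293 Flp-in T-REx, a human embryonic kidney line with an integration site for an inducible transgene. The transgene encoded the large polymerase subunit Rpb1 in an α-amanitin-resistant form, as H1106Y, as R749H or as WT. In every group it was induced with doxycycline for 12 to 16 h, after which α-amanitin shut off the cells' own polymerase for 42 h. WT here is therefore also a transgene. RASL-seq, which counts ligated probe pairs across chosen splice junctions, had 3 libraries of each genotype. The labels do not say if these 3 come from different cultures or clones. The deposited tables hold ratios of splice forms and no gene levels, so markers of the cell line could not be checked.

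Most human exons are joined while the polymerase is still transcribing, so the rate of elongation sets how long a splice site is exposed before a competing one appears. A slow polymerase can favour inclusion of an exon with weak splice sites, and it can also favour skipping where the longer delay lets a repressor bind. Residue H1106 lies in the trigger loop, the mobile element of the active site that closes over the incoming nucleotide. R749H is the human counterpart of the Drosophila C4 mutation, and both substitutions are known as slow forms. The question was which exons separate the 2 slow polymerases.

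Each level below is an inclusion percentage, the share of inclusion among inclusion and exclusion reads, computed from the authors' deposited tables as 1 pooled value per genotype. A difference is H1106Y minus R749H, in percentage points or as the log2 of the ratio of the 2 inclusion ratios, from which the WT libraries cancel. Its standard error (SE) is approximate and was implied by the deposited p-values. An event was called when its approximate z test had a Benjamini-Hochberg adjusted p under 0.05 over all 1987 events. The p-values measure the spread that entered the deposited ones, which may be technical. The 1987 rows held 1896 distinct measurements, since 91 rows repeated the values of another exon boundary or gene name in the same span. An event outside the matched set was not compared: 83 were listed for H1106Y alone, 24 of them changed against WT, and 261 for R749H alone, 60 of them changed against WT.

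The 2 slow mutants differed at 825 of the 1987 exon events (41.5%), in 701 genes. Inclusion was higher in H1106Y cells at 260 events (13.1%) and lower at 565 (28.4%). A called difference of at least 10 percentage points was found at 439 events (22.1%), 140 of them higher in H1106Y cells (7.05%) and the rest lower (15%). Over all events the median log2 difference was -0.45, with a median inclusion of 60.3% in H1106Y cells, 67.8% in R749H cells and 66.7% in WT cells. Tested against that median in place of 0, 405 events were higher and 374 lower, so the excess of lower events is relative to no difference and not to the shift of all events. Levels still lay within 5 points of each other at 1048 events (52.7%).

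**Figure D1:**
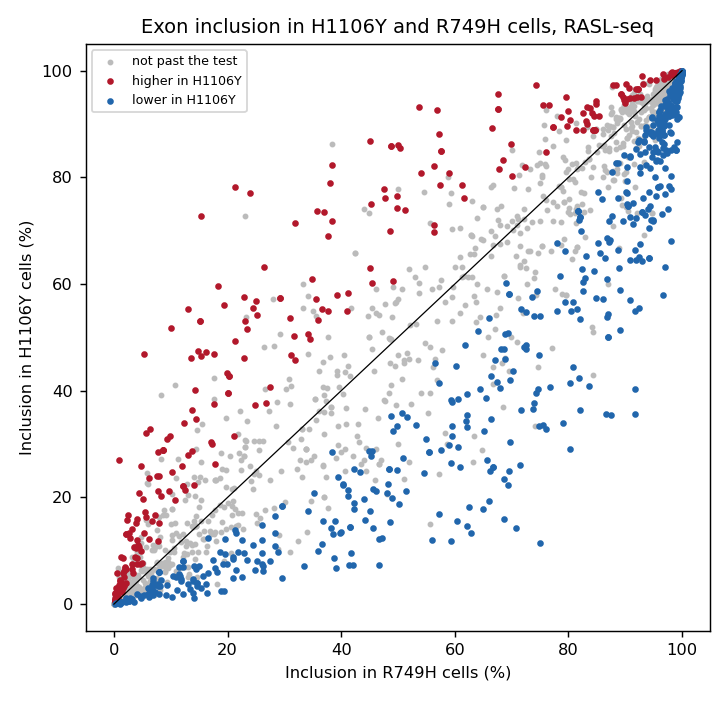
Inclusion of 1987 exon events in R749H cells (horizontal axis, %) and in H1106Y cells (vertical axis, %), 1 point per event. Red points (260) are called higher in H1106Y, blue points (565) called lower, and grey points did not pass; the blue points crowd the upper right corner, where R749H cells include the exon almost always.

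Relative to WT, the events changed more often in H1106Y cells. Of the 1987 matched events, 1258 (63.3%) changed in H1106Y cells, 483 higher and 775 lower, and 931 (46.9%) changed in R749H cells, 506 higher and 425 lower. The 2 comparisons share the WT libraries, so each is given for itself. Over its whole table the share was 61.9% for H1106Y, with 23.7% higher and 38.2% lower, and 44.1% for R749H, with 24% higher and 20.1% lower. The 260 events called higher in H1106Y cells than in R749H cells had a median inclusion of 53.1% in H1106Y, 24.2% in R749H and 22.8% in WT cells. The 565 called lower had a median of 60.9% in H1106Y, 85.2% in R749H and 87.0% in WT cells. In either direction the median R749H level lay nearer the median WT level than the H1106Y level did.

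Among the 10 largest gains in H1106Y over R749H were exons of genes for cell death and for the modification of splicing factors. A 129-nt exon of APAF1, the scaffold of the apoptosome, stood at 82.4% in H1106Y, 38.5% in R749H and 30.8% in WT cells, a log2 difference of 2.90 (SE 0.89, adjusted p = 0.0041). By RNA-seq the same exon was at 86.0% in R749H and 58.2% in WT cells, a gain that passed there (adjusted p = 0.0038) and not by RASL-seq (adjusted p = 0.54). A 94-nt exon of JMJD6 (chromosome 17, 74717345 to 74717438), a hydroxylase that modifies splicing factors, was at 55.4% in H1106Y cells, against 13.03% in R749H and 3.14% in WT cells. Here the SE was 0.35 for a log2 difference of 3.05 (adjusted p = 3.7e-16).

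Receptor genes were also in that group. A 145-nt exon of FGFR2, a fibroblast growth factor receptor, stood at 46.9% in H1106Y, 5.22% in R749H and 7.86% in WT cells. By RNA-seq the same exon was at 82.1% in R749H and 79.4% in WT cells, far above its RASL-seq levels. A 39-nt exon of ADGRL3, an adhesion G protein-coupled receptor, was at 51.7% in H1106Y cells, against 10.0% in R749H and 22.9% in WT cells. The ADGRL3 exon lay above WT in H1106Y cells and below WT in R749H cells, and both changes passed against WT. Other gains were in LRRC28 (77.1% in H1106Y against 23.9% in R749H), TMX3, a thioredoxin-related protein of the endoplasmic reticulum (78.9% against 38.0%), and 2 genes without a symbol in the names used here. Of these, the 72-nt exon of ENSG00000163067 was at 86.8% in H1106Y and 45.1% in R749H cells.

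Among the 10 largest losses in H1106Y relative to R749H were exons of membrane traffic and cytoskeleton genes. A 106-nt exon of RAB6A (chromosome 11, 73429658 to 73429763), a GTPase of the Golgi, was at 35.5% in H1106Y, 87.5% in R749H and 96.9% in WT cells, a log2 difference of -3.66 (SE 0.33, adjusted p = 1.5e-26). A 94-nt exon of FMNL2 (chromosome 2, 153501948 to 153502041), a formin that elongates actin filaments, was at 13.4% in H1106Y, 62.8% in R749H and 58.0% in WT cells. Its log2 difference of -3.45 had an SE of 0.24 (adjusted p = 2e-42). R749H did not pass against WT at this exon (adjusted p = 0.11).

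Other losses had thinner support or other roles. A 173-nt exon of RUNX1T1, a transcriptional corepressor, was at 35.6% in H1106Y, 86.5% in R749H and 90.9% in WT cells. A 118-nt exon of MCAM, a cell adhesion molecule, was at 40.3% in H1106Y, 91.7% in R749H and 96.2% in WT cells. A 93-nt exon of OSBPL6, an oxysterol-binding protein, was at 35.7% in H1106Y, 91.7% in R749H and 93.3% in WT cells. RNA-seq had it at 12.7% in R749H and 54.8% in WT cells (adjusted p = 0.00083), a loss in R749H that RASL-seq did not call (adjusted p = 0.79). CCSER2 had 14.3% in H1106Y and 70.7% in R749H cells. The largest difference of all, in MAP4K1, a kinase upstream of JNK, was 11.5% in H1106Y against 75% in R749H cells. It rests on an SE of 1.64 for a log2 difference of -4.52, and neither mutant passed against its WT level of 36.7%.

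**Figure D2:**
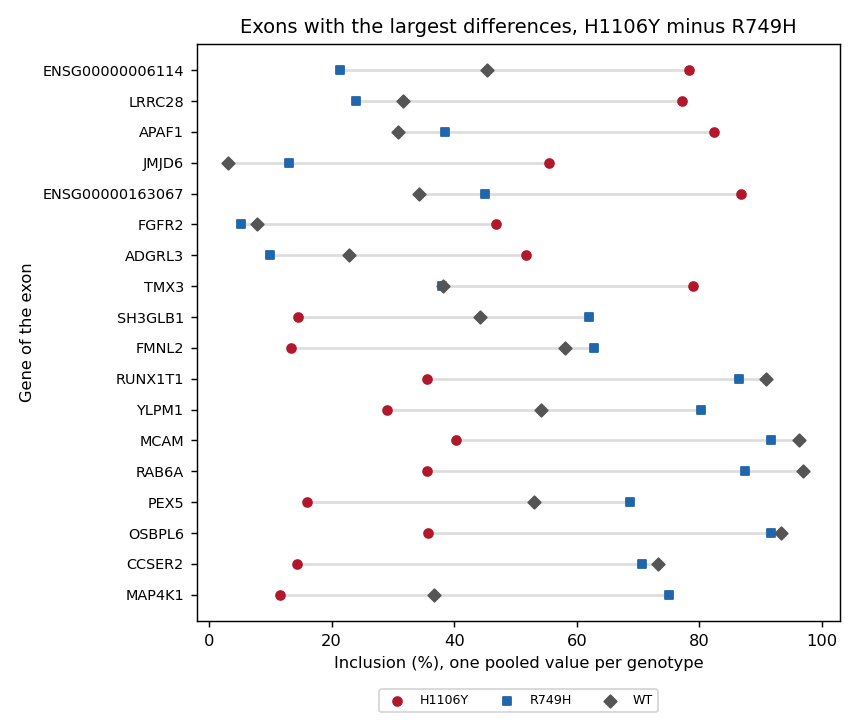
Inclusion (horizontal axis, %) of 8 exons among the largest gains and 10 among the largest losses in H1106Y relative to R749H cells, for H1106Y (circles), R749H (squares) and WT (diamonds), 1 pooled value each and no error per library. In TMX3, OSBPL6 and MCAM the R749H square sits next to the WT diamond, although by RNA-seq the OSBPL6 exon was lower in R749H (12.7%) than in WT cells (54.8%), and in YLPM1 the diamond sits at 54.1%, between the square at 80.3% and the circle at 29.1%.

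Some exons stood on opposite sides of WT in the 2 mutants. The largest of these, named among events changed against WT in both mutants, was a 303-nt exon of the gene ENSG00000006114 (chromosome 17, 35939228 to 35939530). It was at 78.3% in H1106Y, 21.4% in R749H and 45.3% in WT cells, a log2 difference of 3.73 (SE 0.29, adjusted p = 1.7e-35). In the other direction, a 2118-nt exon of YLPM1 was at 29.1% in H1106Y, 80.3% in R749H and 54.1% in WT cells. A 111-nt exon of PEX5, the import receptor of peroxisomes, was at 16.0% in H1106Y, 68.7% in R749H and 52.97% in WT cells. A 142-nt exon of SH3GLB1, endophilin B1, was at 14.6% in H1106Y, 62.1% in R749H and 44.2% in WT cells. A 104-nt exon of the growth factor gene FGF5 was at 34.0% in H1106Y, 79.0% in R749H and 63.9% in WT cells. In SH3GLB1 and PEX5 the R749H change was near the threshold, with an adjusted p of 0.033 and 0.026.

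The difference between the mutants followed the level that WT cells gave the exon. WT levels come from other libraries and do not enter the difference. Of 236 events under 5% inclusion in WT cells, 67 were higher and 21 lower in H1106Y than in R749H cells, with a median log2 difference of 0.65. Of 475 events over 95% in WT cells, 14 were higher and 190 lower, with a median of -1.07. The 659 events of 20% to 80% had 99 higher and 182 lower and a median of -0.31. Across all 1987 events the log2 difference correlated with the WT log ratio at Pearson's r = -0.37 and Spearman's rho = -0.37, a description across events that share libraries.

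In H1106Y cells the log2 inclusion ratios were also less spread than in R749H cells. Their SD over events was 4.16 in H1106Y, 4.46 in R749H and 4.33 in WT cells. Exons over 95% inclusion numbered 408 in H1106Y, 506 in R749H and 475 in WT cells, while exons under 5% numbered 249 in H1106Y, 245 in R749H and 236 in WT cells. In percentage points the shift of near-constitutive exons was small, with a median level of 97.9% in H1106Y and 98.9% in R749H cells for exons over 95% in WT. When a straight line on the WT log ratio was taken off, 722 events differed, 361 higher and 361 lower in H1106Y cells. No RNA-seq of H1106Y was analysed here, so a property of its RASL-seq libraries and an effect of the mutation cannot be told apart.

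**Figure D3:**
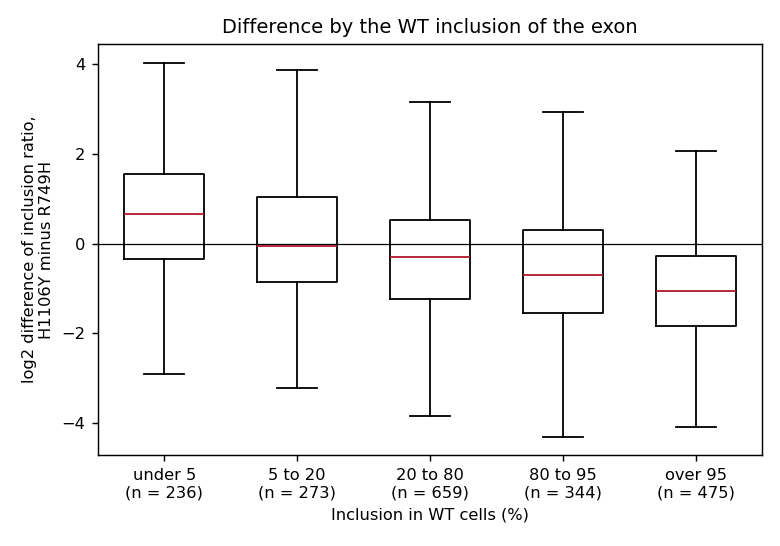
log2 difference of the inclusion ratio, H1106Y minus R749H (vertical axis), in 5 classes of WT inclusion (horizontal axis, %). Boxes span the quartiles with the median in red, and whiskers reach the last event within 1.5 box heights; the median is 0.65 for exons under 5% in WT cells and -1.07 for exons over 95%.

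Exon length and reading frame were features the comparison did not use. Their classes count all 1987 rows, so a measurement listed with several exon boundaries enters once for each length. Exons whose length is a multiple of 3, which can be skipped without a frame shift, had 162 higher and 279 lower among 1122 events, and a median log2 difference of -0.21. The other 865 events had 98 higher and 286 lower and a median of -0.69. These exons also had a higher median WT inclusion, 73.2% against 59.5%. Within WT inclusion of 20% to 80% the medians were -0.56 for exons that shift the frame and -0.12 for exons that keep it, from 257 and 402 events. Within WT inclusion over 80% they were -1.08 and -0.77, from 396 and 423 events.

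By length, 51 events of 27 nt or less had 6 higher and 11 lower and a median of -0.23. The 1610 events from 51 nt up to under 300 nt had 212 higher and 467 lower and a median of -0.49, and 96 events of 300 nt or more had 18 higher and 25 lower and a median of -0.07. The correlation of the log2 difference with log10 length was -0.02. The distance between the flanking exons was also weakly related, at r = -0.06. Among the 398 shortest spans, 328 to 2856 nt, 72 events were higher and 104 lower in H1106Y cells, against 34 and 113 among the 398 longest, 23374 to 495130 nt.

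SR proteins bind exons and promote their inclusion, and several control their own level through an exon with a stop codon. The poison exon of SRSF3 (456 nt, chromosome 6, 36567598 to 36568053), such an exon, reached 95.7% in H1106Y, against 67.6% in R749H and 37.7% in WT cells. Its log2 difference of 3.41 had an SE of 0.36 (adjusted p = 6.7e-19). A 120-nt exon of ACIN1, an SR-like protein bound to exon junctions, was at 93.1% in H1106Y, 53.7% in R749H and 38.6% in WT cells. A 64-nt exon of SRPK2, a kinase that phosphorylates SR proteins, was at 47.0% in H1106Y, 17.6% in R749H and 12.1% in WT cells. A 90-nt exon of TRA2A, named for its several events, was at 80.8% in H1106Y, 54.1% in R749H and 22.8% in WT cells. Of the 3 TRA2A measurements, 2 were higher in H1106Y cells and 1 lower. The lower one, of a 312-nt exon, was at 73.6% in H1106Y, 81.6% in R749H and 81.9% in WT cells. Of 31 measurements in 23 genes of SR proteins and relatives, 8 were higher and 9 lower in H1106Y cells and 14 did not pass (54.8% called). The called differences ran from 39.4 points in ACIN1 down to -24.1 points. The list's median log2 difference was 0.16, against -0.44 over all 1896 measurements, of which 245 were higher and 537 lower (41.2% called). Whether this list or any list below departs from these shares was not tested.

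The lists of splicing regulators and core factors held exons called in either direction. A 376-nt exon of TIAL1, an RNA-binding protein that aids U1 recruitment, was higher, at 46.5% in H1106Y against 15.4% in R749H cells. A 139-nt exon of HNRNPH3 was lower, at 29.4% in H1106Y against 60.6% in R749H cells, as was a 1279-nt exon of RBM6, at 34.7% against 66.3%. Of 32 measurements in 20 hnRNP and regulator genes, 4 were higher and 11 lower (46.9% called, against 41.2% over all measurements). Their median was -0.51. Of 15 measurements in 12 core spliceosome genes, 2 were higher and 4 lower (40% called), with a median of -0.34. The called ones included PRPF3, a protein of the U4/U6 snRNP (37.5% in H1106Y, 17.5% in R749H), and ZRANB2 (21.1% and 9.74%).

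Among genes of transcription itself, exons of both subunits of a kinase differed, in opposite directions. CCNC encodes cyclin C and CDK8 its kinase in the Mediator complex. The CCNC exon, listed with a length of 95 or 68 nt, was at 53.1% in H1106Y, 15.2% in R749H and 6.94% in WT cells, a log2 difference of 2.66 (SE 0.29, adjusted p = 3.2e-18). The 144-nt CDK8 exon was at 58.9% in H1106Y, 89.1% in R749H and 98.4% in WT cells, a log2 difference of -2.51 (SE 0.50). A 164-nt exon of the P-TEFb cyclin gene CCNT1 was at 86.0% in H1106Y, 50% in R749H and 17.5% in WT cells. Over 14 measurements in 13 genes of this list, 4 were higher and 4 lower (57.1% called, against 41.2% over all measurements).

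RNA surveillance genes had 2 higher and 8 lower among 21 measurements in 15 genes (47.6% called), with a median log2 difference of -0.68. Over all 1896 measurements, 245 were higher and 537 lower (41.2% called), with a median of -0.44. UPF3A and UPF3B encode related factors of nonsense-mediated decay, and an exon of each was lower in H1106Y cells. The 56-nt UPF3A exon was at 40.4% in H1106Y, 74.7% in R749H and 76.6% in WT cells. The UPF3B exon was at 14.5% in H1106Y, 41.6% in R749H and 68.1% in WT cells. The 68-nt exon of DIS3, a nuclease of the exosome, was higher, at 63.2% in H1106Y, 26.4% in R749H and 7.20% in WT cells.

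DNA replication and repair genes had 9 higher and 12 lower among 39 measurements in 23 genes (53.8% called, against 41.2% over all measurements). Their median was -0.79. An exon of RCC1, the exchange factor of Ran, was at 85.9% in H1106Y, 48.8% in R749H and 21.9% in WT cells. Another RCC1 exon, of 129 nt, was called lower, at 7.14% in H1106Y, 26.2% in R749H and 47.0% in WT cells. RFC5 encodes part of the clamp loader, and its 126-nt exon was at 89.3% in H1106Y, 66.5% in R749H and 31.4% in WT cells. Of 4 called RFC5 measurements, 3 were higher in H1106Y cells and 1 lower.

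The p53, cell cycle and apoptosis list had 7 higher and 9 lower among 29 measurements in 21 genes (55.2% called, against 41.2% over all measurements). Its median was -0.46. A 25-nt exon of FAS, a death receptor, was at 64.3% in H1106Y, 93.0% in R749H and 89.0% in WT cells. A 150-nt exon of MDM4, an inhibitor of p53, was at 57.9% in H1106Y, 96.6% in R749H and 97.1% in WT cells, with an SE of 1.57 on its log2 difference of -4.38. Chromatin regulators had 12 higher and 20 lower among 57 measurements in 41 genes (56.1% called), with a median of -0.54. They included KMT2A, a histone H3 methyltransferase (7.06% in H1106Y, 33.4% in R749H), BPTF, a subunit of a nucleosome remodeller (42.0% and 69.7%), and KMT2E (74.2% and 49.8%).

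The cytoskeleton and adhesion list had 15 higher and 22 lower among 83 measurements in 47 genes (44.6% called, against 41.2% over all measurements). Its median was -0.11. A 33-nt exon of DNM1L, the GTPase of mitochondrial fission, was at 30.4% in H1106Y, 69.7% in R749H and 46.0% in WT cells, a log2 difference of -2.40 (SE 0.26, adjusted p = 4.3e-18). A 27-nt exon of MARK3, a polarity kinase, was at 12.4% in H1106Y, 47.2% in R749H and 78.7% in WT cells. A 62-nt exon of PDLIM7 was at 41.5% in H1106Y, 80.3% in R749H and 58.2% in WT cells. Endocytosis and membrane traffic genes had 6 higher and 15 lower among 47 measurements in 30 genes (44.7% called), with a median of -0.32. A 167-nt exon of ITSN1, an endocytic scaffold, was at 18.3% in H1106Y, 62.4% in R749H and 91.6% in WT cells.

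**Figure D4:**
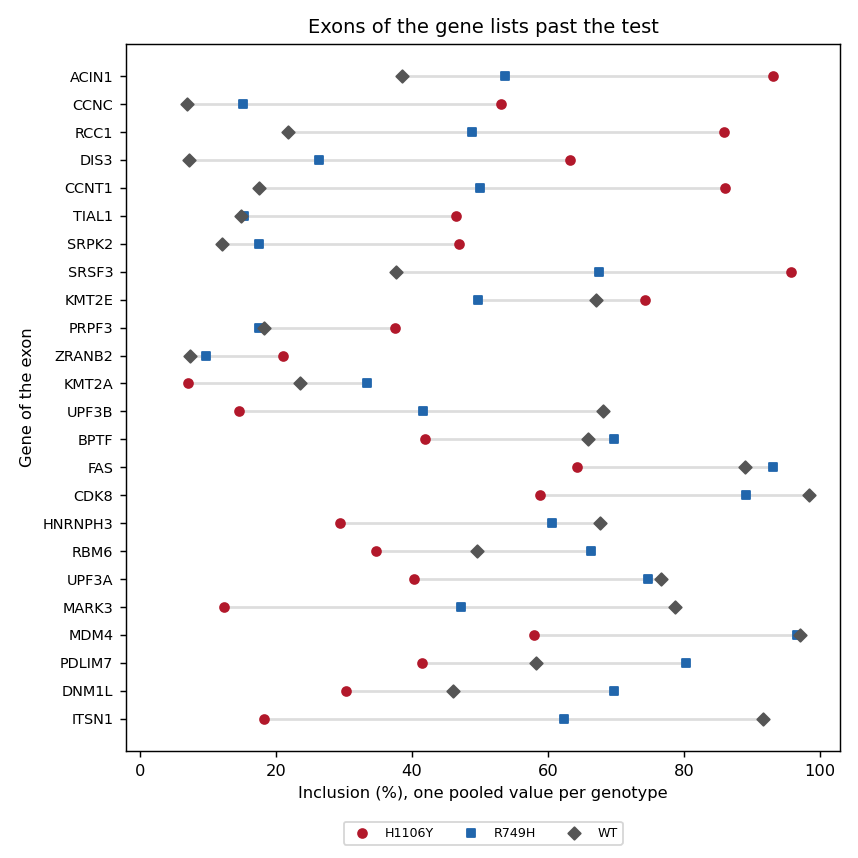
Inclusion (horizontal axis, %) of 24 exons from 10 gene lists, up to 3 per list among those that differed and without those in the plot of the largest gains and losses, in H1106Y (circles), R749H (squares) and WT (diamonds), 1 pooled value each. In SRSF3, CCNT1, DIS3, UPF3B, MARK3 and ITSN1 the R749H square lies between the WT diamond and the H1106Y circle, and in KMT2A, RBM6, PDLIM7 and DNM1L the WT diamond lies between the circle and the square.

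**Figure D5:**
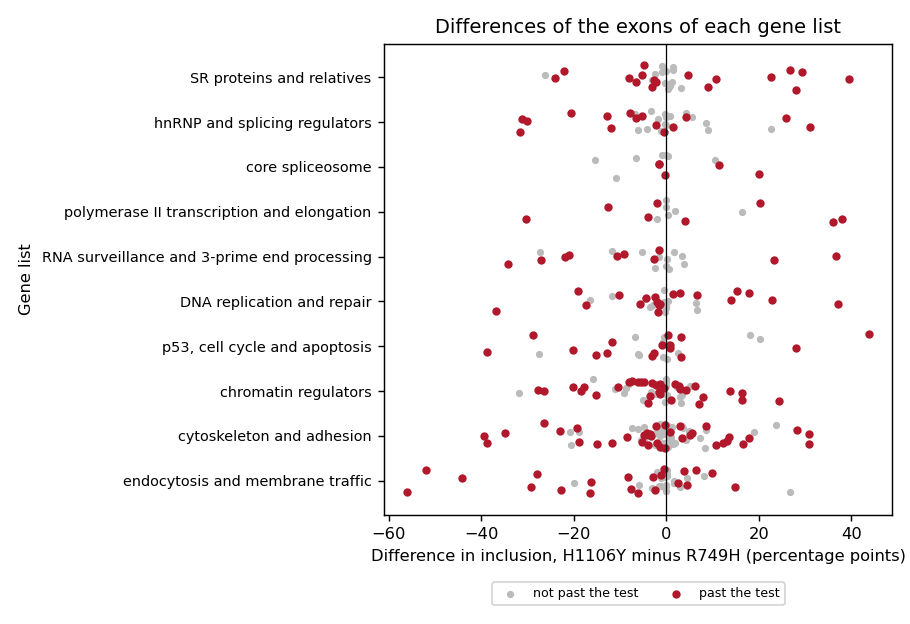
Difference in inclusion, H1106Y minus R749H (horizontal axis, percentage points), of the measurements shown for the 10 gene lists (vertical axis); vertical scatter within a list is only for legibility. Red points passed the test, and called differences lie on either side of 0 in every list, from 43.9 points in APAF1 to -56.0 in OSBPL6.

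Within a gene, different exons could separate the mutants in different directions. Of 76 genes with at least 2 called measurements, 8 had all of them higher in H1106Y cells, 37 all lower and 31 some of each. Of all 782 called measurements, 31.3% were higher in H1106Y cells. Whether the split within genes departs from that share was not tested. Measurements of a gene share junctions, so they are not independent. In TCF7L2, a transcription factor of the Wnt pathway, 5 of 8 measurements were called. Its 51-nt exon at 114918426 to 114918476 on chromosome 10, measured against the junction that ends at 114920377, was at 73.8% in H1106Y, 35.8% in R749H and 59.9% in WT cells. Against the longer junction that ends at 114925313, the same exon was at 15.6% in H1106Y, 16.6% in R749H and 43.5% in WT cells, and did not differ between the mutants (adjusted p = 0.77). Against this longer junction, 2 later exons of 73 nt were called lower in H1106Y cells. The exon at 114919679 to 114919751 was at 5.59% in H1106Y, 11.4% in R749H and 37.5% in WT cells. The exon at 114920378 to 114920450 was at 6.19% in H1106Y, 26.3% in R749H and 34.0% in WT cells.

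In DNM1L the 78-nt exon at 32890799 to 32890876 on chromosome 12 was at 88.2% in H1106Y, 57.2% in R749H and 52.3% in WT cells when measured up to the 33-nt exon described above. Measured across that exon, it was at 76.5% in H1106Y, 75.5% in R749H and 48.3% in WT cells (adjusted p of the difference = 0.84). In MARK3, 4 of 5 measurements were called and all 4 were lower in H1106Y cells.

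At other exons far from WT the mutants were not distinguished. Named after their values were seen, 14 measurements lay at least 30 points from WT in the same direction in both mutants without passing the test of the difference. The most precise was in SNRNP70, which encodes a protein of the U1 snRNP, where a 1474-nt exon was at 34.6% in H1106Y, 35.6% in R749H and 72.1% in WT cells. The approximate 95% interval of its log2 difference ran from -0.53 to 0.41. A 69-nt exon of ST7 was at 9.52% in H1106Y, 12.4% in R749H and 48.4% in WT cells (interval -1.19 to 0.34). A 24-nt exon of the kinase TNIK was at 56.3% in H1106Y, 47.7% in R749H and 90.9% in WT cells (interval -0.37 to 1.38). For a 672-nt exon of PALLD, an actin-associated protein, levels of 67.9% in H1106Y and 69.2% in R749H came with an interval of -1.52 to 1.35.

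The fast mutant E1126G, made in the same cells and measured with 3 RASL-seq libraries, gives a scale for these differences. Of 1927 events in the 3 RASL-seq tables, 822 (42.7%) differed between H1106Y and R749H by the approximate z test, 977 (50.7%) between H1106Y and E1126G, and 703 (36.5%) between R749H and E1126G. The median absolute difference was 4.51 points between H1106Y and R749H, 5.58 points between H1106Y and E1126G, and 3.19 points between R749H and E1126G. The E1126G level was nearer to R749H than to H1106Y at 1274 of the 1927 events (66.1%). The pairs share libraries, and whether these counts differ from each other was not tested. In FMNL2, E1126G cells stood at 79.3%, in ITSN1 at 87.2% and in CCNT1 at 22.6%. In MARK3, at 20.1%, and in UPF3B, at 22.7%, E1126G was instead nearer to H1106Y. The SRSF3 poison exon was at 72.2% in E1126G, against 67.6% in R749H and 37.7% in WT cells, so the fast mutant also lay above WT there.

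R749H also had RNA-seq, with 2 libraries, and 1429 of the 1896 measurements had a row there. The log2 change of R749H against WT correlated between RASL-seq and RNA-seq at Pearson's r = 0.65 across these events. Of 248 measurements changed in R749H on both assays, 243 went the same way. Levels themselves differed between the assays, as in the FGFR2 exon above. The LRRC28 exon was at 90.4% in R749H and 92% in WT cells by RNA-seq, against 23.9% and 31.6% by RASL-seq. The SRSF3 poison exon was at 83.7% in R749H and 10.4% in WT cells by RNA-seq, and the UPF3B exon at 17.5% in R749H and 53.7% in WT cells. Besides the APAF1 and OSBPL6 exons, that of TIAL1 passed in R749H by RNA-seq (55.9% in R749H, 38.6% in WT cells, adjusted p = 0.042) and not by RASL-seq (adjusted p = 0.81). Conversely, the R749H changes of ADGRL3, SRPK2, KMT2E, RBM6 and PDLIM7 passed by RASL-seq and not by RNA-seq, as did those of ENSG00000006114, PEX5, SH3GLB1 and FGF5. The ADGRL3 exon was at 30% in both R749H and WT cells by RNA-seq, and the RBM6 exon at 93.0% in R749H and 96.4% in WT cells. The H1106Y levels rest on RASL-seq alone here.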

How the data were processed

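RASL-seq of H1106Y, R749H and WT cells was analysed, with RASL-seq of E1126G and RNA-seq of R749H as side values. The deposited tables hold 3 values per exon event and none per library. The first is the natural log of the WT inclusion ratio, the second the log2 change from WT to mutant, and the third an unadjusted p-value, all made by the authors. The submitters' processing notes name Bowtie 0.12.7, edgeR 3.7.17 and the GRCh37 build without roles. The labels' protocols name TopHat for the paired-end reads. No source used here states the test behind the deposited p-value. The table with a code name is R749H by its samples' labels. Log bases were checked on the values: WT ratios were whole-number ratios (denominator up to 300, relative tolerance 1e-09) for 62.9% (H1106Y table) and 63.3% (R749H table) of events with the natural log, and for 0.338% and 0.311% with log2.

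Mutant ratios are the WT ratio times 2 to the power of the log2 change, and inclusion is 100 times the ratio over 1 plus the ratio. The error of each change is its size over the normal quantile of its deposited p-value. Both errors were added as if independent, although WT noise cancels, which makes the z test conservative if the implied errors hold. The median implied SE of the difference was 0.48, with a range of 0.17 to 1.96. The z test was tested on simulated data. Those data were drawn with the implied errors, so they could not show if these errors hold. Depth is unknown, so no interval of a level is given. Events of a gene share reads. Coordinates are printed 1-based. Of the 1504 gene identifiers, 1483 had a symbol. Named exons are the 10 highest and 10 lowest called differences in points, the 5 largest on opposite sides of WT, and up to 3 per gene list; 4 of them are not reported here. The members, lists and tests were chosen with earlier results of these data known. No sequence is printed, since no genome of the build was used here. Alternatives were other thresholds, errors, centring and event filters. Python 3.11.15, scipy 1.17.1 and pandas 2.3.3 were used.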

Additional observations from a re-analysis of the deposited data

Results flagged for a closer look

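The 2 slow mutants' changes against WT differed from each other at 825 events by the approximate z test of the difference itself. The 5 exons named for lying on opposite sides of WT had changes against WT that passed in both mutants, besides passing that test. They are the largest such differences and not the only ones. The named exons of ADGRL3, DNM1L, PDLIM7, KMT2A and RBM6 met the same conditions with smaller differences in points. The exon of ENSG00000006114 was 56.9 points higher in H1106Y than in R749H cells. The exons of FGF5 (-45.0 points), SH3GLB1 (-47.5), YLPM1 (-51.2) and PEX5 (-52.6) were lower in H1106Y cells. By RNA-seq of R749H the exons of ENSG00000006114 (37.9% in R749H, 45.2% in WT), PEX5 (52.1% and 63.3%), FGF5 (83.3% and 91.3%) and SH3GLB1 (99.6% and 98.4%) did not pass against WT. The YLPM1 exon had no RNA-seq row. The opposite position in R749H cells therefore rests on RASL-seq in all 5 exons.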

How the results depend on the processing

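The number of differing events, 825, ran from 601 to 1097 under other adjusted p thresholds (0.01 and 0.1), with the WT part of the error removed, with each error at least its table's median, with 1 event per gene, and without levels under 1% or over 99%. It was 535 of 1276 with WT inclusion of 5% to 95%, where fewer events were tested, and 439 with at least 10 points required. The share higher in H1106Y cells, 31.5%, was 52.0% against the median difference and 50% against a line on the WT log ratio, an alternative chosen after seeing the data, and 28.8% to 33.5% otherwise. With identical measurements counted once, also chosen after seeing the data, 782 of 1896 differed. The median log2 difference was -0.35 with WT inclusion of 5% to 95% and -0.37 with levels of 1% to 99%. The counts against WT kept within 1.5 times of 1258 and 931 at thresholds of 0.01 and 0.1. All 47 exons that the naming rule picks kept their direction and their call when WT error was removed, errors were raised or the median was taken off. Much of this was fixed in advance, since these exons were picked as called. Removing WT error cannot undo a call. Only taking off the median could have changed a direction. No paired analysis was possible because the tables hold no value per library, and for the same reason no library could be left out. Small differences at near-constitutive exons depend on few exclusion reads, whose number is unknown.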

Other observations

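Several genes held exons that separated the mutants and that the comparison above did not name. In MFF, the mitochondrial receptor of the fission GTPase DNM1L, a 75-nt exon was at 16.7% in H1106Y, 2.52% in R749H and 3.43% in WT cells. Against a longer junction, that exon was at 27.3% in H1106Y, 11.3% in R749H and 19.2% in WT cells. There it did not pass the test (adjusted p of the difference = 0.13). A 159-nt exon of MFF was at 35.9% in H1106Y, 50.7% in R749H and 60.8% in WT cells. BTRC and FBXW11 encode related F-box proteins that recognise β-catenin. A 78-nt exon of BTRC, measured across its 108-nt exon, was at 67.5% in H1106Y, 92.6% in R749H and 87.4% in WT cells. Measured from the 108-nt exon on, it was at 92.2% in H1106Y, 96.0% in R749H and 91.8% in WT cells, also called lower in H1106Y. The 108-nt exon, measured up to the 78-nt exon, was at 93.5% in H1106Y, 76.5% in R749H and 63.7% in WT cells. Measured across the 78-nt exon, it was at 77.4% in H1106Y, 79.0% in R749H and 63.1% in WT cells (adjusted p of the difference = 0.85). A 102-nt exon of FBXW11 was at 23.6% in H1106Y, 6.14% in R749H and 7.46% in WT cells when measured up to a 63-nt exon. Measured across the 63-nt exon, it was at 1.90% in H1106Y, 1.28% in R749H and 1.17% in WT cells (adjusted p of the difference = 0.18). The 63-nt exon itself was at 5.90% in H1106Y, 16.5% in R749H and 12.8% in WT cells. Each gene thus had called measurements in both directions.

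In BRCA1, a tumour suppressor of homologous recombination, 3 of 4 measurements were higher in H1106Y cells, all by small amounts. Its 66-nt exon was at 10.5% in H1106Y, 3.87% in R749H and 13.6% in WT cells; against WT, R749H passed (adjusted p = 8.7e-18) and H1106Y did not (adjusted p = 0.092). In BCLAF1, an SR-related protein, 3 of 3 measurements were lower in H1106Y cells. Its 41-nt exon was at 85.4% in H1106Y, 92.0% in R749H and 96.0% in WT cells. These genes were named after their values were seen.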
